A study of Homo sapiens with 6 samples.

Results

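This account covers 10 genes for the enzymes and the chaperone that hydroxylate, fold and cross-link collagen, out of 28181 genes in the deposited files. They are the lysyl oxidases LOX, LOXL1, LOXL2, LOXL3 and LOXL4, the lysyl hydroxylases PLOD1, PLOD2 and PLOD3, the prolyl 4-hydroxylase subunit P4HA1 and the collagen chaperone SERPINH1. They were taken by symbol from this fixed list, all 10 were found by Ensembl identifier, and all 10 passed the filter on low values. RNA was sequenced from UE7T-9, a human mesenchymal stem cell line of bone marrow origin that carries hTERT and papillomavirus E7. Cells transduced with a lentiviral SHC4 vector under a CMV promoter (UE7T-9 SHC4, genotype SHC4-OE) were compared with control cells (UE7T-9 Cont), in 3 libraries each. The labels give the controls as nontarget with genotype WT, while the methods describe a GFP vector, and both lines were selected with puromycin. The series text speaks of cell clones, without saying how many. The labels call the 3 libraries of a group biological replicates, but whether they were separate infections or cultures is not given, and p-values then measure only the spread between these libraries.

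Collagen is modified inside the endoplasmic reticulum and joined into fibres outside the cell. Prolyl 4-hydroxylases, built from an alpha subunit such as P4HA1 and the beta subunit P4HB, hydroxylate prolines and so stabilise the triple helix. Lysyl hydroxylases (PLOD genes) hydroxylate lysines, and PLOD2 is the form known for acting on the telopeptides, the ends of the chain that take part in cross-links. SERPINH1 (HSP47) binds the folded helix on its way out of the endoplasmic reticulum. Lysyl oxidases are secreted copper enzymes that oxidise lysines and hydroxylysines of collagen and elastin, which then form covalent cross-links. In marrow stromal cells and osteoblasts these enzymes shape the bone matrix, and LOX, PLOD2 and P4HA1 are known targets of hypoxia-inducible factor 1.

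The promoters of 4 of the genes are shown because they contain ACGTG, a form of the core of the hypoxia response element. Other forms of that core were not searched. The promoter of PLOD2 is also shown because its level differed most clearly between the groups. Each window runs from 250 bases before to 50 bases after the annotated start, 5′ to 3′ on the strand of the gene, from RefSeq on GRCh38.p14. Capitals mark ACGTG on either strand in all of them, and in SERPINH1, a gene known to respond to heat shock, they also mark the overlapping heat shock letters TTCNNGAA and GAANNTTC.
PLOD2 (chr3:146161135-146161434, minus strand): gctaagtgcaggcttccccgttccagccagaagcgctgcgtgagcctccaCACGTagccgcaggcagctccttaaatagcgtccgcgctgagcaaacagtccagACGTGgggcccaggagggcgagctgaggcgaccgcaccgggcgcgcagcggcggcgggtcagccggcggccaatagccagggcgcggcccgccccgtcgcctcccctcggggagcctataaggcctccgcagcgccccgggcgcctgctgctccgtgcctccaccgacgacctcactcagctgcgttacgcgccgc
LOX (chr5:122078210-122078509, minus strand): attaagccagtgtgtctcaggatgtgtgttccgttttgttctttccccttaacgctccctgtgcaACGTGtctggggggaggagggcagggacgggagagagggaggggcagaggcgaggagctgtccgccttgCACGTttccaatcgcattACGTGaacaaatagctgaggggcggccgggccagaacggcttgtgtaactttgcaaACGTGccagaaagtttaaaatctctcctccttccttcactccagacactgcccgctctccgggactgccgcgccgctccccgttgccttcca
P4HA1 (chr10:73096817-73097116, minus strand): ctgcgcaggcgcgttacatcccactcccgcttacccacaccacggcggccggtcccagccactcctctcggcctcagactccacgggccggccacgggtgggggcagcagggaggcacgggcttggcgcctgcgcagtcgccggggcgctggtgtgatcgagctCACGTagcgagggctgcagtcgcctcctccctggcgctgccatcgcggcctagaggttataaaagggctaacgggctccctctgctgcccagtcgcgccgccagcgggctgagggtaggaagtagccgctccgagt
SERPINH1 (chr11:75562003-75562302, plus strand): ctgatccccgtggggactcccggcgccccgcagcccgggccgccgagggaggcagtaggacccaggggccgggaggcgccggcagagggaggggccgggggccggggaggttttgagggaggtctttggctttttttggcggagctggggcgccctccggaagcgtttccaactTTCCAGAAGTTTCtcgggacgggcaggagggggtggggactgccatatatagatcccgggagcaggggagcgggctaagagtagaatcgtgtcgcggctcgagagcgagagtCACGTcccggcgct
ACGTG occurred 4 times in the LOX window, 2 times in that of PLOD2 and 1 time each in those of P4HA1 and SERPINH1, so in 4 of the 9 windows that were matched. Of all 35116 windows of this length, 21.4% hold it. The heat shock letters GAANNTTC were found in SERPINH1 and PLOD1 (in 6.77% of all windows) and TTCNNGAA in SERPINH1 (7.74%). The letters TTCNNNGAA, to which STAT factors are known to bind, were found in LOXL3 (7.66% of all windows). No entry was matched for LOXL2. A match is a description of the letters and says nothing about binding in these cells.

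The deposited normalized counts were whole multiples of 1 read in every library, so the reads behind them could be recovered, 18144993 to 27721397 per library. Normalized counts of SHC4 itself were 56.5, 157 and 129.9 in the control libraries against 134870.4, 119166 and 155006 with SHC4. The mesenchymal markers THY1, NT5E, ENG, VIM and PDGFRB had 1263 reads or more in every library, whereas PTPRC (leukocytes), EPCAM (epithelium) and CDH5 (endothelium) had 7 or fewer. Normalized counts of the mesenchymal markers summed to 51529 to 61227 in the control libraries against 58217 to 69252 with SHC4. The sum of 6 markers of other cell types, CD34, PECAM1 and CD14 among them, was 133 to 157 in the control libraries against 119 to 154 with SHC4. Most of this second sum came from CD34, PECAM1 and CD14, and PECAM1 is also a marker of endothelium. DESeq2 called 1 of the 11, PDGFRB, higher (limma log2 fold change 1.38, adjusted p = 0.162, DESeq2 adjusted p = 0.0171), where 2.06% of all genes were called higher. Without UE7T-9 Cont library 1 limma called PDGFRB higher at 1.84 (adjusted p = 0.000698) and THY1 at 1.67 (adjusted p = 0.00167), and without both libraries numbered 1 it also called NT5E lower at -0.63 (adjusted p = 0.045). The part of the makeup of the cultures in the other results was not tested. The libraries numbered 1 stood apart in both groups. Of the 10 genes, 6 (LOX, LOXL1, LOXL2, LOXL4, PLOD1 and SERPINH1) had their highest value of each group in library 1, against 18.0% of the 23040 genes tested and 27.9% of the 4882 genes whose mean normalized count reached 1000. No label names what these libraries share, and their part in the differences was not tested. Results are therefore also given without UE7T-9 Cont library 1, a setting in which limma called 5.68% of all genes, and without both libraries numbered 1, in which it called 9.58%, where this changed the call of a gene named here. The setting without both was added after the data were seen. In bulk RNA, fewer cells expressing a gene and less RNA per cell cannot be told apart.

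Among the lysyl hydroxylases, the mean of PLOD2 in UE7T-9 SHC4 was 52.4% of the control mean and that of PLOD3 80.5%, both without overlap, whereas PLOD1 overlapped between the groups. PLOD2 passed the test in DESeq2 but not in limma or edgeR, and PLOD3 passed in none of them. PLOD2 (ENSG00000152952, chromosome 3, 146069440 to 146163653) was at 8496, 10302 and 11831 normalized counts in the control libraries 1, 2 and 3, and at 6509, 4297 and 5239 in the SHC4 libraries 1, 2 and 3. All UE7T-9 SHC4 libraries lay below all controls, and the highest of them was library 1, next to the control library 1, the lowest of its group. The means were 10209.9 ± 1669 and 5348 ± 1110.1 (SD, n = 3 each). The log2 fold change on the log2(normalized count + 1) scale was -0.94 (standard error 0.19, 95% interval -1.37 to -0.51, limma adjusted p = 0.116). The exact permutation test over libraries gave a two-sided p of 0.1, the smallest that 3 libraries against 3 allow. DESeq2 on the recovered reads put the difference at -0.93 (standard error 0.21, adjusted p = 0.00102), while edgeR gave an adjusted p of 0.143. The size of the difference was therefore much the same in the 3 tools (-0.94, -0.93 and -0.93), and only DESeq2 placed it past the threshold of 0.05 when all libraries were kept. Without UE7T-9 Cont library 1 the limma value was -1.07 (adjusted p = 0.0143), and without both libraries numbered 1 it was -1.22 (adjusted p = 0.00241). With any other library left out, limma did not call PLOD2.

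PLOD3 (ENSG00000106397, chromosome 7, 101205977 to 101218420), whose protein also adds sugars to hydroxylysine, was at 3485, 4212 and 3675 in the control libraries. With SHC4 the values were 3167, 2693 and 3297, all below the lowest control, with means of 3791 ± 377 and 3052 ± 318 (SD, n = 3 each). The log2 fold change was -0.31 (standard error 0.14, 95% interval -0.62 to -0.01, limma adjusted p = 0.336), and the unadjusted limma p was 0.0462. Its exons share 429 bases with ZNHIT1 on the opposite strand, and how strand was treated in counting is not given in the sources used here. ZNHIT1 had a log2 fold change of 0.10 (limma adjusted p = 0.762). PLOD1 (ENSG00000083444, chromosome 1, 11934205 to 11975538), which acts on lysines of the helix, had 8913, 7589.8 and 6459 in the control libraries against 8042, 6157 and 6894 with SHC4, and the groups overlapped. Its log2 fold change was -0.12 (standard error 0.17, 95% interval -0.50 to 0.26, limma adjusted p = 0.791).

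P4HA1 and SERPINH1 overlapped between the groups, and neither passed the threshold in any of the 3 tools with all libraries kept. P4HA1 (ENSG00000122884, chromosome 10, 73007217 to 73096974) was at normalized counts of 3079, 4051 and 3384 in the control libraries against 3604, 2036 and 2761 with SHC4. The groups overlapped through UE7T-9 SHC4 library 1, and the means were 3505 ± 497 and 2800.4 ± 785 (SD, n = 3 each). The log2 fold change was -0.35 (standard error 0.21, 95% interval -0.82 to 0.11, limma adjusted p = 0.466). Without both libraries numbered 1 it was -0.64 in limma (adjusted p = 0.0404) and -0.63 in DESeq2 (adjusted p = 0.00443). SERPINH1 (ENSG00000149257, chromosome 11, 75562056 to 75572783) had 16944, 7823 and 8090.1 in the control libraries against 14621, 6899 and 7749.7 with SHC4. Library 1 was 2.13 times the mean of the other two in UE7T-9 Cont and 2.00 times in UE7T-9 SHC4, so the means were 10952 ± 5191 and 9756 ± 4234 (SD, n = 3 each). The log2 fold change was -0.15 (standard error 0.35, 95% interval -0.95 to 0.64, limma adjusted p = 0.881), and it turned to 0.21 without UE7T-9 Cont library 1 and to 0.06 without UE7T-9 SHC4 library 2.

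**Figure D1:**
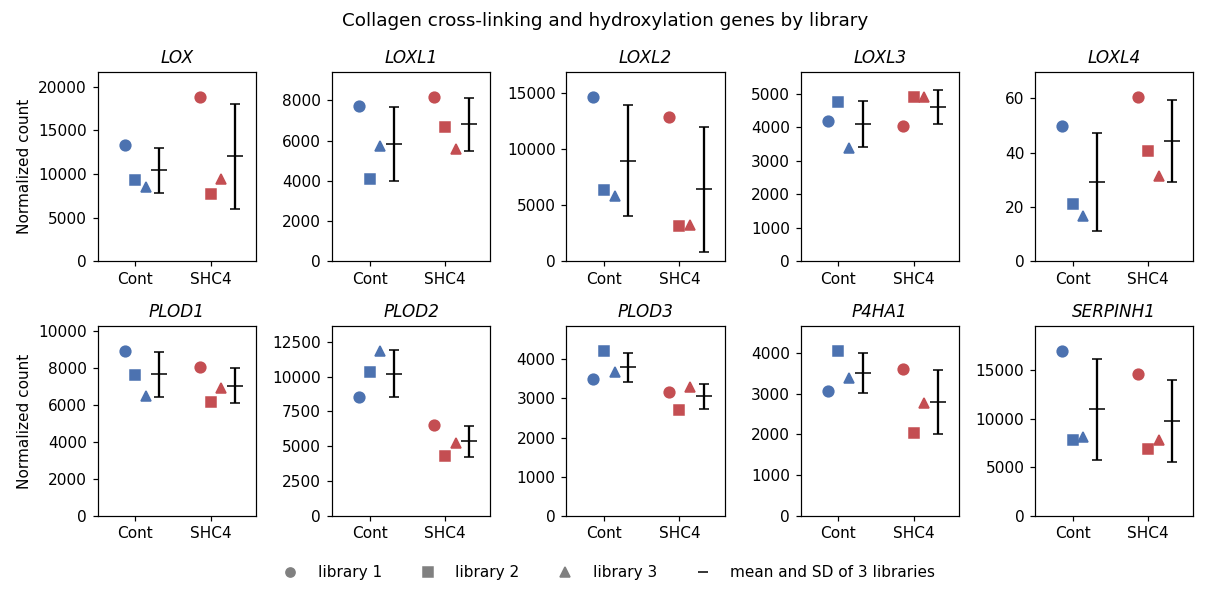
Normalized count of each of the 10 genes (y axis, linear from 0, a scale of its own for each gene) in the 3 UE7T-9 Cont (blue) and 3 UE7T-9 SHC4 libraries (red), with the library number as the marker and the mean and SD of each group in black. The UE7T-9 SHC4 points of PLOD2 and PLOD3 all lie below the control points, and LOX, LOXL2 and SERPINH1 were high in library 1 (circles) of both groups.

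The 5 lysyl oxidases overlapped between the groups, and none passed the threshold in any of the 3 tools with all libraries kept. LOX (ENSG00000113083, chromosome 5, 122063195 to 122078360), the founding member of the family, gave normalized counts of 13365, 9320.4 and 8551 in the control libraries against 18884, 7714 and 9486 with SHC4. The highest value was that of UE7T-9 SHC4 library 1 and the lowest that of UE7T-9 SHC4 library 2, so the UE7T-9 SHC4 libraries spanned all the controls, with means of 10412 ± 2586 and 12028 ± 6003 (SD, n = 3 each). The log2 fold change was 0.13 (standard error 0.32, 95% interval -0.59 to 0.84, limma adjusted p = 0.892). It was -0.26 without UE7T-9 SHC4 library 1, -0.06 without both libraries numbered 1 and -0.0029 without UE7T-9 Cont library 3, so its direction rested on single libraries.

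LOXL2 (ENSG00000134013, chromosome 8), which is known for cross-linking collagen IV of basement membranes, varied most of the 10 genes, over 2.20 log2 units. It had 14665, 6365 and 5838 in the control libraries against 12811, 3183 and 3242 with SHC4. Library 1 was 2.40 times the mean of the other two in UE7T-9 Cont and 3.99 times in UE7T-9 SHC4, and the means were 8956 ± 4951 and 6412 ± 5542 (SD, n = 3 each). The log2 fold change was -0.68 (standard error 0.53, 95% interval -1.88 to 0.52, limma adjusted p = 0.599). Among the libraries numbered 2 and 3 alone, both UE7T-9 SHC4 values lay below both controls, with a log2 fold change of -0.92 (limma adjusted p = 0.00259). This setting was added after the data were seen, and limma called 9.58% of all genes in it. It leaves out UE7T-9 SHC4 library 1, through which the groups overlapped. DESeq2 without UE7T-9 Cont library 1 gave 0.08. Between libraries of the same number, LOXL2, SERPINH1, PLOD2 and PLOD3 were lower with SHC4 in all 3, and LOXL4 was higher in all 3. The labels do not pair these libraries, and the share of all genes with either pattern was not computed, so this is a description only.

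LOXL1 (ENSG00000129038, chromosome 15, 73925989 to 73952137), known for its part in elastic fibre upkeep, had 7722, 4069 and 5722 in the control libraries against 8184, 6659 and 5579 with SHC4. The groups overlapped, with means of 5838 ± 1829.6 and 6807 ± 1309 (SD, n = 3 each), and the log2 fold change was 0.25 (standard error 0.24, 95% interval -0.28 to 0.79, limma adjusted p = 0.668). LOXL3 (ENSG00000115318, chromosome 2, 74532414 to 74555690) was the lysyl oxidase with the least spread, at 4179, 4749 and 3386 in the control libraries against 4030.4, 4920.2 and 4905 with SHC4. Its log2 fold change was 0.18 (standard error 0.16, 95% interval -0.18 to 0.54, limma adjusted p = 0.654). Its exons share 625 bases with HTRA2 and 216 bases with DOK1, both on the opposite strand. Smaller overlaps hold for LOXL1 with LOXL1-AS1 (335 bases), LOX with SRFBP1 (138) and LOXL2 with ENTPD4 (120, same strand), and reads from such bases cannot be told apart without strand or with shared exons. LOXL4 (ENSG00000138131, chromosome 10, 98247690 to 98268250) was barely expressed, with 17 to 69 reads per library. Its normalized counts were 49.7, 21.2 and 16.7 in the control libraries against 60.6, 40.8 and 31.4 with SHC4, and its log2 fold change was 0.69 (standard error 0.45, 95% interval -0.33 to 1.71, limma adjusted p = 0.521). The interval of LOXL4 covers changes in both directions, so a difference of this size could not be told from none in these libraries.

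**Figure D2:**
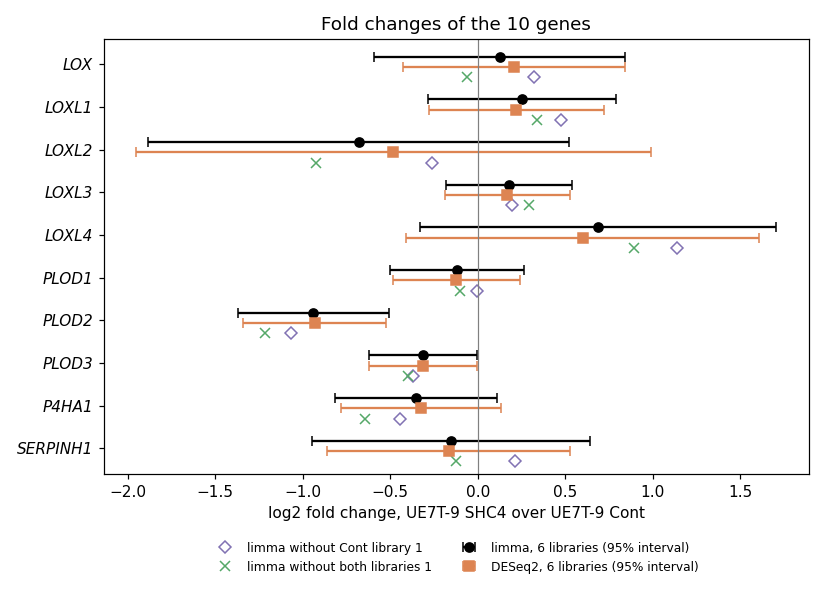
log2 fold change of UE7T-9 SHC4 over UE7T-9 Cont (x axis) for the 10 genes, from limma and DESeq2 with their 95% intervals over 6 libraries, and from limma without the control library 1 or without both libraries numbered 1. The interval of PLOD2 lies wholly below 0 in both tools, the intervals of PLOD3 end close to 0, and those of the other 8 genes span 0.

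Across the 10 genes, 6 had a log2 fold change below 0 and 4 above 0, with a median of -0.14, against -0.004 for the 23040 genes tested, of which 49.7% were above 0. The sign of that median rested on single libraries, since it was 0.10 without UE7T-9 Cont library 1 (0.13 in DESeq2) and 0.01 without UE7T-9 SHC4 library 2. At a limma adjusted p below 0.05, with or without the fold change threshold of 1 (log2), 0 of the 10 were called, where 0.0651% of all genes were called without the fold threshold and 0.0608% with it. edgeR also called 0 of the 10 (0.0694% of all genes). At an unadjusted limma p below 0.05 there were 2 of 10, PLOD2 and PLOD3, against 14.4% of all genes. DESeq2 called 1 of 10, PLOD2, against 4.14% of the genes with an adjusted p and 2.08% called lower. PLOD2 and PLOD3 made 2 of 10 genes whose groups did not overlap with UE7T-9 SHC4 lower, against 10.2% of all genes. None did so with UE7T-9 SHC4 higher, against 9.13%, and in either direction 19.3% of all genes did not overlap. Without UE7T-9 Cont library 1, limma called 1 of 10, PLOD2, where 5.68% of all genes were called, and so did DESeq2 (14.0%). Without both libraries numbered 1, limma called PLOD2, LOXL2 and P4HA1, all lower, 3 of 10 against 9.58% of all genes, and DESeq2 called the same 3 (15.1% of all genes).

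Levels of different genes were compared per kb of exon. By the mean normalized count per kb in UE7T-9 Cont the order was LOX (1877), SERPINH1 (1744), LOXL1 (1605), LOXL2 (1569), PLOD1 (1439), PLOD2 (1335), P4HA1 (1133), LOXL3 (941), PLOD3 (668) and LOXL4 (8.0). The first 7 genes changed places from one control library to the next, so neighbours among them did not differ beyond their spread, whereas LOXL3, PLOD3 and LOXL4 held the last 3 places in all control libraries. PLOD2 ranked 6th, 3rd and 2nd in the UE7T-9 Cont libraries and 8th, 7th and 7th in the UE7T-9 SHC4 libraries. With the longest transcript in place of all exons as the length, SERPINH1 came first in UE7T-9 Cont (3109 per kb), followed by PLOD2 (2662), so the order among these genes also depends on the annotation.

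The sum of the 3 lysyl hydroxylases per kb was 3401, 3517 and 3409.6 in the control libraries against 2921, 2194 and 2562 with SHC4. The control sums lay close together, and all UE7T-9 SHC4 sums were below them. PLOD2 made up 32.7, 38.3 and 45.4% of that sum in the control libraries against 29.1, 25.6 and 26.7% with SHC4, lower in all SHC4 libraries. The share of PLOD1 was 49.3, 40.6 and 35.6% in the control libraries against 51.7, 52.7 and 50.6% with SHC4, higher in all SHC4 libraries, while its own level overlapped. Shares within a library do not depend on the scaling between libraries. The ratio of PLOD2 to PLOD1 per kb was 0.663, 0.944 and 1.27 in the control libraries against 0.563, 0.486 and 0.529 with SHC4. These sums and shares were chosen with PLOD2 already known to be lower and carry no test of their own.

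The sum of the 5 lysyl oxidases per kb was 8074, 5009 and 4918 in the control libraries against 8839.7, 4918 and 4945 with SHC4, so that it separated library 1 from the rest and not the groups. LOX, LOXL1 and LOXL2 each took between 11.3% and 38.5% of the sum in a library. LOXL2 took 31.8, 22.3 and 20.8% in the control libraries against 25.4, 11.3 and 11.5% with SHC4. The groups overlapped through UE7T-9 SHC4 library 1. LOXL4 took 0.169, 0.116 and 0.0931% in the control libraries against 0.188, 0.227 and 0.174% with SHC4, higher in all SHC4 libraries but a very small part of the whole.

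**Figure D3:**
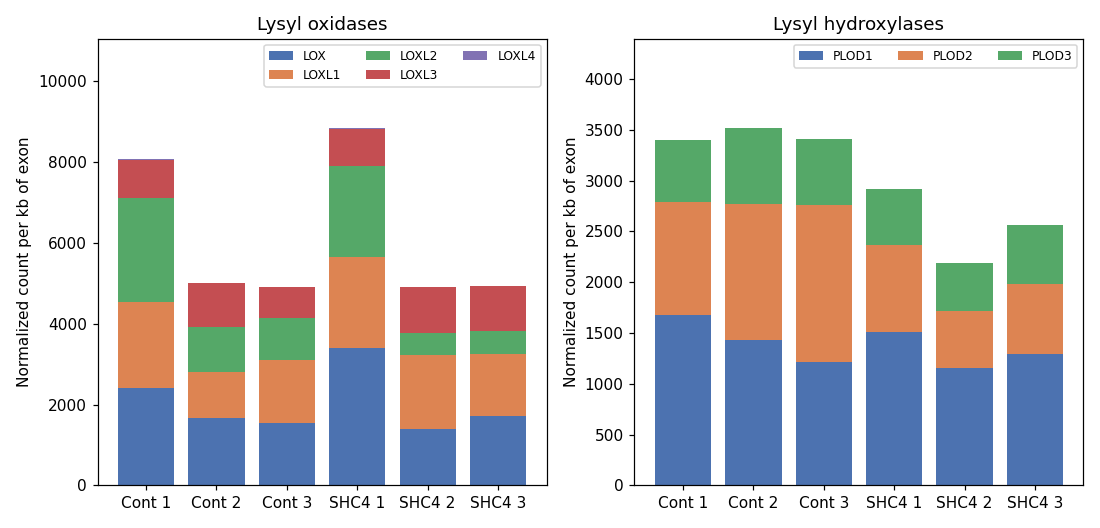
Normalized count per kb of exon (y axis) of the lysyl oxidases (left) and lysyl hydroxylases (right), stacked by gene, in each of the 6 libraries. The lysyl oxidase sum was highest in library 1 of both groups, and the lysyl hydroxylase sum was lower in the 3 UE7T-9 SHC4 libraries, with a smaller PLOD2 part.

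Type I collagen, the main substrate, varied with library 1 as well. COL1A1 reached normalized counts of 315042, 87857 and 67813 in the control libraries against 276719, 130035 and 122241 with SHC4, at a limma log2 fold change of 0.41 (adjusted p = 0.799). COL1A2 had 238109, 106936 and 74827 in the control libraries against 210247, 178051 and 180862 with SHC4, with a log2 fold change of 0.61 (limma adjusted p = 0.589). Without both libraries numbered 1 limma called COL1A2 higher at 1.00 (adjusted p = 0.0397). For 1000 units of COL1A1 and COL1A2 per kb, the lysyl hydroxylases together had 63.7, 189.8 and 250.5 in the control libraries against 62.1, 75.1 and 89.4 with SHC4, and the groups overlapped. SERPINH1 had 50.5, 67.2 and 94.6 in the control libraries against 49.5, 37.6 and 43.0 with SHC4 on this scale, lower in all SHC4 libraries, while its own level overlapped. The lowest control and the highest SHC4 value, both in library 1, were close. This scale also moves with the collagen sum per kb itself. That sum was 53429, 18533 and 13614 in the control libraries 1, 2 and 3 against 47028, 29203 and 28662 with SHC4. The share of all genes lower on this scale in all SHC4 libraries was not computed. P4HA1 had 18.6, 70.7 and 80.4 in the control libraries against 24.8, 22.5 and 31.1 with SHC4 on this scale, and the groups overlapped. The lysyl oxidases together had 151, 270.3 and 361 in the control libraries against 188, 168 and 173 with SHC4, which overlapped.

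Of the 7 other genes of proline hydroxylation (P4HA2, P4HA3, P4HB, P3H1, P3H2, P3H3 and CRTAP), 3 were above 0 and 4 below, with a median of -0.01 (log2), and 0 passed in limma, with P3H1 and P3H2 at an unadjusted p below 0.05, as were 14.4% of all genes. P3H2, a prolyl 3-hydroxylase, was the one gene of 7 that DESeq2 called, where 2.08% of all genes were called lower. It had 918, 871 and 1129 in the control libraries against 756, 475 and 440.2 with SHC4, all of them lower, and its limma log2 difference was -0.84 (standard error 0.21, limma adjusted p = 0.17, DESeq2 adjusted p = 0.0331). Without both libraries numbered 1 limma called 2 of the 7, P3H2 at -1.12 (adjusted p = 0.00397) and P3H1 at -0.43 (adjusted p = 0.0432), against 9.58% of all genes. The 6 partners of lysyl hydroxylation and collagen glycosylation (P3H4, PPIB, FKBP10, COLGALT1, COLGALT2 and TMEM38B) had a median of 0.13, with 5 above 0 and none called by limma or DESeq2. None had an unadjusted limma p below 0.05. Without UE7T-9 Cont library 1 limma called TMEM38B, a channel of the endoplasmic reticulum, at a log2 fold change of -0.90 (adjusted p = 0.0418), 1 of 6 against 5.68% of all genes. Without both libraries numbered 1 limma called it too, at -0.66 (adjusted p = 0.00864), where 9.58% of all genes were called. The 10 other genes of collagen folding and export had 8 above 0 and a median of 0.16, with 0 called by limma or DESeq2 and 2 (FKBP7 and FKBP9) at an unadjusted limma p below 0.05, against 14.4% of all genes. FKBP7, a prolyl isomerase of the endoplasmic reticulum, had 559.5, 663 and 392 in the control libraries against 694, 818 and 989 with SHC4, without overlap (limma log2 fold change 0.65, adjusted p = 0.224).

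Among the 8 genes that process procollagen and lysyl oxidase precursors, 6 were above 0 (median 0.32), with 0 called by limma or DESeq2 and 3 (TLL1, PCOLCE and ADAMTS14) at an unadjusted limma p below 0.05, against 14.4% of all genes. TLL1, a protease of the BMP1 family that cleaves procollagen, had 0 to 26 reads per library, at normalized counts of 3.90, 8.24 and 0 in the control libraries against 22.9, 14.2 and 16.3 with SHC4 (limma adjusted p = 0.234). PCOLCE, which enhances BMP1 and is named after its values were seen, had 13141, 4969 and 3332 in the control libraries against 12522, 13532 and 11146 with SHC4. It overlapped only through UE7T-9 Cont library 1 (limma log2 fold change 1.04, adjusted p = 0.299). Without that library limma called 1 of the 8 genes, PCOLCE, at a log2 fold change of 1.6 (adjusted p = 0.00326), where 5.68% of all genes were called. Without both libraries numbered 1 it called 2 of 8 (9.58% of all genes), PCOLCE and ADAMTS14, the latter a procollagen peptidase, at 0.98 (adjusted p = 0.0186).

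The 7 matrix partners of lysyl oxidases had a limma median of 0.75, with 6 above 0. With all libraries the median was 0.48 in DESeq2 and 0.49 in edgeR. In limma it ran from 0.27 without UE7T-9 Cont library 3 to 1.20 without UE7T-9 Cont library 1. With all libraries limma called 0 of them, and FBLN5 and EFEMP2 had an unadjusted limma p below 0.05 (14.4% of all genes). Without UE7T-9 Cont library 1 limma called 3 of 7, against 5.68% of all genes, namely FBLN5 at 1.38 (adjusted p = 0.00634), EFEMP2 at 1.04 (adjusted p = 0.00326) and TGM2, a transglutaminase, at 1.28 (adjusted p = 0.00834). Without both libraries numbered 1 it called the same 3, against 9.58% of all genes. FBLN5 was then at 1.45 (adjusted p = 0.00499), EFEMP2 at 1.04 (adjusted p = 0.0018) and TGM2 at 1.08 (adjusted p = 0.00258). FBLN5, which tethers LOXL1 to elastic fibres, was the one called by DESeq2, which called 2.06% of genes higher. It had 1269, 802 and 494 in the control libraries against 1499, 1831 and 1612 with SHC4, all higher, and its limma log2 difference was 1.05 (standard error 0.29, limma adjusted p = 0.187, DESeq2 adjusted p = 0.0461). EFEMP2, the fibulin that binds LOX, named after its values were seen, had 4697, 2704 and 2416 in the control libraries against 5280.2, 5314 and 5170.3 with SHC4, also without overlap (limma adjusted p = 0.206). ELN (elastin), the other main substrate of lysyl oxidases, had 718, 85.9 and 45.3 in the control libraries against 3469, 842 and 829 with SHC4. All UE7T-9 SHC4 values lay above all controls, and library 1 was the highest of each group. The limma log2 fold change of ELN was 3.24 (standard error 0.92, 95% interval 1.17 to 5.30, limma adjusted p = 0.195), and DESeq2 gave it no adjusted p. Without UE7T-9 Cont library 1 it was 4.41 (adjusted p = 0.00388) in limma. The 6 substrate genes had 4 values above 0 and a median of 0.21, and neither limma nor DESeq2 called any of them, with ELN and COL5A2 at an unadjusted limma p below 0.05 (14.4% of all genes). The sign of the median turned with single libraries, from -0.18 without UE7T-9 Cont library 3, -0.17 without UE7T-9 SHC4 library 1 and -0.01 without UE7T-9 Cont library 2 to 0.82 without UE7T-9 Cont library 1. With all libraries this substrate median was 0.04 in DESeq2 and 0.05 in edgeR. Without both libraries numbered 1 limma called 3 of the 6, COL1A2, ELN at 3.72 (adjusted p = 0.000479) and COL5A2, a fibrillar collagen chain, lower at -0.65 (adjusted p = 0.03), against 9.58% of all genes.

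Of the 5 genes for copper and ascorbate supply, 1 was called by DESeq2, where 2.06% of all genes were called higher, and 0 by limma with all libraries. CCS, the copper chaperone for superoxide dismutase, had 504, 423 and 374 in the control libraries against 697, 721 and 671 with SHC4, with a limma log2 fold change of 0.69 (limma adjusted p = 0.122, DESeq2 adjusted p = 0.00762). Limma called CCS without UE7T-9 Cont library 1 at 0.81 (adjusted p = 0.0114) and without both libraries numbered 1 at 0.81 (adjusted p = 0.00852). The median of the 5 was 0.04, and -0.06 under library size scaling. The hypoxia-responsive genes, listed because PLOD2, P4HA1 and LOX respond to hypoxia, had 4 of 9 tested above 0 and a median of -0.03, with 0 called by limma or DESeq2 and 2 (SLC2A1 and ADM) at an unadjusted limma p below 0.05, against 14.4% of all genes. These lay in opposite directions. SLC2A1, a glucose transporter, had 1337, 1585 and 1381 in the control libraries against 1157, 765 and 897 with SHC4 (limma log2 fold change -0.63, adjusted p = 0.18), and was called without both libraries numbered 1 at -0.84 (adjusted p = 0.00683). ADM, the adrenomedullin gene, had 5366, 4317 and 2717 in the control libraries against 6352, 5858 and 6162 with SHC4 (limma log2 fold change 0.62, adjusted p = 0.267), and was called without UE7T-9 Cont library 1 at 0.84 (adjusted p = 0.0362). Without both libraries numbered 1 limma called ADM at 0.81 (adjusted p = 0.0346).

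**Figure D4:**
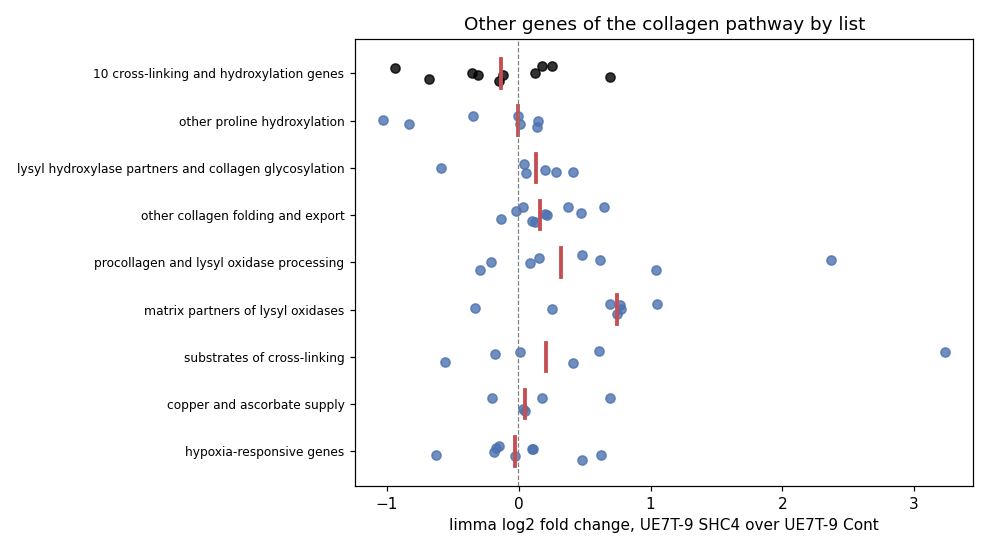
limma log2 fold change (x axis) of each tested gene of the 10 genes described here (black) and of 8 lists of related genes (blue), with the median of each list as a red bar and the median of all genes tested as a dashed line. The highest point is ELN among the substrates of cross-linking, at 3.24, and the list medians range from -0.14 to 0.75.

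LOXL2 was the gene with the widest range, and its profile was set against those of 11521 genes whose mean normalized count reached 100. By the mean absolute difference of centred log2 values over the 6 libraries, the nearest were PSAT1 (0.20 log2 units), EIF4EBP1 (0.26), MYBL2 (0.26), MT2A (0.28) and RN7SL2 (0.28). PSAT1 had 3740.3, 1949.5 and 1910.4 in the control libraries against 4566, 1116 and 1506 with SHC4. It was highest in library 1 of both groups, which follows largely from its choice by closeness to LOXL2.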

How the data were processed

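RNA from 6 samples, 3 per group, was made into NEBNext Ultra libraries and sequenced on a NovaSeq system. The authors deposited 1 signal per gene and library, a count divided by a size factor (normalized count). The submitters' processing notes name HISAT2 2.0.5, featureCounts 1.5.0-p3 and DESeq2. Genome build, annotation and strand setting are not given in the sources used here.

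Counts were recovered by division with the smallest nonzero value of each library (100% of values whole within 0.01 reads), and the size factors were those of DESeq2. All 28181 identifiers were matched to symbols. Gene positions and exon lengths are from GENCODE 29 on GRCh38. The test was limma 3.58.1 with a mean-variance trend (R 4.3.3). It took log2(value + 1), kept 23040 genes (mean 1 or more) and adjusted p-values over all of them by Benjamini-Hochberg. Single genes were called at an adjusted p under 0.05 alone, and counts of genes over the whole table in the closing section also required a log2 change over 1 in size. This scale understates the change of genes with few reads. DESeq2 1.42.0 and edgeR 4.0.16 (quasi-likelihood) served as alternatives on recovered counts. Other alternatives were library size and TMM scaling, no filter or a mean of at least 10, pseudocount 0.1, a replicate block and leaving out each library. The main limma, DESeq2 and edgeR fits were also run on simulated counts, in which no library stood apart. The other settings were not simulated. Mean chi-square per gene between pairs of libraries was at least 14.5, where sampling noise gives 1, so no library was a duplicate. Between UE7T-9 Cont library 1 and UE7T-9 SHC4 library 1 it was 33.9. That was lower than between UE7T-9 Cont library 1 and control libraries 2 and 3 (95.0 and 147). It was also lower than between UE7T-9 SHC4 library 1 and SHC4 libraries 2 and 3 (83.1 and 69.7).

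The 10 members, the 10 related lists (72 genes, of which HBB and ALB were not analysed here) and the tests were chosen with earlier results of these data known. From each list, genes past an adjusted p of 0.05 in limma or DESeq2 were named, otherwise up to 2 with the largest change among those without overlap. P3H1, FKBP9, ADAMTS14, COL5A2, TMEM38B, TGM2, PCOLCE and EFEMP2 and the neighbours of PLOD2 by profile were named after their values were seen.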

Additional observations from a re-analysis of the deposited data

How the results depend on the processing

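Genes called over the whole table, 12 higher and 2 lower in UE7T-9 SHC4 with limma, numbered 170 and 185 with DESeq2, 9 and 1 with edgeR, 19 and 5 under library size scaling, 20 and 4 under TMM scaling, 31 and 9 with no filter on low values, and 11 and 1 with pseudocount 0.1. Leaving out 1 library gave 1 to 367 higher and 0 to 339 lower, with 367 and 339 without UE7T-9 Cont library 1, 49 and 14 without UE7T-9 SHC4 library 1, 6 and 0 without UE7T-9 Cont library 2, and 1 and 1 without UE7T-9 SHC4 library 2 or 3. Added after the data were seen, leaving out both libraries numbered 1 gave 494 and 378 in limma and 456 and 371 in DESeq2, and DESeq2 without UE7T-9 Cont library 1 gave 475 and 417. The causes were not tested.

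LOXL1, LOXL3, LOXL4, PLOD2, PLOD3 and P4HA1 kept their direction under all 17 alternatives. PLOD2 passed the adjusted p of 0.05 with DESeq2 (-0.93), without UE7T-9 Cont library 1 in limma (-1.07) and DESeq2 (-1.05), and without both libraries numbered 1 (-1.22 and -1.21). In that last setting LOXL2 (-0.92 in limma, -0.92 in DESeq2) and P4HA1 (-0.64 and -0.63) passed too. With 1 library left out, limma values ranged from -1.09 to -0.79 for PLOD2, -0.26 to 0.39 for LOX, -0.49 to 0.21 for SERPINH1 and -1.35 to -0.26 for LOXL2. LOX turned negative without both libraries numbered 1 (-0.062 in limma, -0.053 in DESeq2). With DESeq2 without UE7T-9 Cont library 1, the sign turned for SERPINH1 (0.30), LOXL2 (0.075) and PLOD1 (0.0035). Library size scaling moved the median of all genes from -0.004 to -0.10 and PLOD2 to -1.04. Without 1 library, the other list medians ranged from 0.0023 to 0.18 for partners of lysyl hydroxylation and 0.07 to 0.21 for folding and export (lowest without UE7T-9 Cont library 3), 0.15 to 0.46 for processing (lowest without UE7T-9 SHC4 library 1), -0.15 to 0.10 for proline hydroxylation, 0.05 to 0.15 for copper and ascorbate supply and -0.23 to 0.12 for hypoxia. The family sums and shares moved by less than the spread between libraries in the alternatives tried.

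The labels do not say that libraries of the same number belong together. Their deviations from the group means correlated at 0.148, 0.013 and -0.007 across the 23040 genes, not over 0.1 in each pair (at 0.409, 0.146 and 0.149 across 12678 genes of mean 50 or more, where UE7T-9 Cont library 2 and UE7T-9 SHC4 library 3 reached 0.517). Fitting the replicate block gave 25 calls higher and 14 lower, and PLOD2 had an adjusted p of 0.079 and LOXL2 of 0.121. Of the listed genes it changed 1 call, that of ELN (adjusted p = 0.0202).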

Other observations

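PLOD2 shared its profile over the 6 libraries most closely with POLR3G, ATP1B1, DPY19L2P1, CDC6 and VRK1, among 11521 genes whose mean normalized count reached 100. The comparison was chosen after the values of PLOD2 were seen and is a description. POLR3G, a subunit of RNA polymerase III, differed from PLOD2 by a mean of 0.0717 log2 units per library, with 254, 344 and 353 in the control libraries against 204, 142 and 178 with SHC4. CDC6, which loads the helicase at replication origins, had 1666, 1767 and 1995 in the control libraries against 1211, 902 and 894 with SHC4. ATP1B1, the beta subunit of the sodium pump, had 681, 816 and 976 in the control libraries against 578, 429 and 426 with SHC4. In these 3 genes, as in PLOD2, library 1 was the lowest control and the highest SHC4 library. Genes chosen for closeness to PLOD2 largely have to share this pattern. In DPY19L2P1, with 172.5, 169.5 and 228.2 in the control libraries, the lowest control was library 2.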
